A study of Mus musculus with 12 samples.

Results

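Dendritic cells of the mouse spleen were compared across both a subset boundary and the genotype of Zfp366: type 1 conventional dendritic cells (cDC1) of Zfp366-/- mice against type 2 cells (cDC2) of wild-type mice. The comparison asks how near the mutant cDC1 come to normal cDC2, gene by gene: which genes stood at one level in both, which stayed below the WT cDC2 level and which stood above it. It uses 6 of the 12 RNA sequencing libraries of the study, chosen by their labels. The mutant cells, KO cDC1, gave 3 libraries from female C57/BL6 mice labelled zfp366-/- (mouse pools 1, 2 and 3), and the cells they were set against, WT cDC2, gave 3 libraries from female C57/BL6 mice labelled zfp366+/+ (mouse pools 4, 5 and 6). All cells were isolated ex vivo from spleens digested with collagenase and DNAse, without any further treatment named in the labels. Each library is a pool of mice, so spread between libraries is spread between pools. How the allele was made, the age of the mice and the number of mice per pool are not given in the sources used here. Because the groups differ in genotype and in subset, the share of each in a difference cannot be told apart within this contrast, and levels in WT cDC1 (3 libraries, pools 4, 5 and 6) are given as a landmark where they help.

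Conventional dendritic cells take up antigen and show it to T cells. cDC1 depend on the transcription factors IRF8 and BATF3, carry XCR1, CLEC9A and CD8α, sense double-stranded RNA and profilin of parasites with TLR3, TLR11 and TLR12, and cross-present antigen from dead cells to CD8 T cells. cDC2 use IRF4, carry SIRPα and CD11b, depend in the spleen on NOTCH2 signalling for the ESAM-high fraction, and present antigen mainly to CD4 T cells. DC-SCRIPT, the product of Zfp366, is a nuclear zinc finger protein that conventional dendritic cells express.

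The KO cDC1 libraries held 23656486 to 25313827 counted reads and the WT cDC2 libraries 11330503 to 28470063. Levels are given in CPM, the standard depth-scaled read count per gene, after TMM scaling of library sizes, in the order of replicates 1, 2 and 3, and differences as log2 fold changes, KO cDC1 minus WT cDC2, with their standard error (SE). The subset labels held up: the summed level of 9 cDC1 markers lay at 7789 to 8606 CPM in KO cDC1 and at 839 to 981 CPM in WT cDC2, and that of 9 cDC2 markers at 491 to 505 CPM in KO cDC1 and at 1887 to 2242 CPM in WT cDC2. The WT cDC2 libraries were less alike than the KO cDC1 libraries, with pairwise Pearson correlations of log2 CPM across genes of 0.887 to 0.943, against 0.984 to 0.991 in KO cDC1. WT cDC2 replicate 1 held more of several cDC1 transcripts than its partners, Cd8a among them (62.2, 2.98 and 4.65 CPM). It held less of others, such as Wdfy4 (533, 829 and 893 CPM). The median cDC1 signature gene stood at 6.0%, 4.6% and 5.8% of its KO cDC1 mean in the WT cDC2 libraries. Gene length also parted the groups. Across genes, the length of a gene and its log2 level in a library minus its mean over the 12 libraries had a Spearman's rho of 0.30, 0.41 and 0.32 in KO cDC1 and of -0.33, -0.09 and -0.10 in WT cDC2. The median length of genes called higher in KO cDC1 was 3336.5 bases and that of genes called lower was 1906 bases. The part of this length trend in single calls was tested only as an alternative fit with the trend removed, which shared 2364 of its 3094 calls with the 2755 described here.

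Most genes either stood at one level in KO cDC1 and WT cDC2 or could not be placed. Of 13415 genes with enough reads to test, edgeR's quasi-likelihood test called 2755 different (20.5%) at a Benjamini-Hochberg adjusted p below 0.05. KO cDC1 were higher in 1398 (10.4%) and lower in 1357 (10.1%). Genes were said to stand at an equal level where no difference was called and the 90% interval of the log2 fold change lay within 2-fold either way, which held for 4766 genes (35.5%). The remaining 5894 (43.9%) were undecided. Of the called genes 2133 were at least 2-fold apart, 1023 higher and 1110 lower in KO cDC1, and 955 were at least 4-fold apart, 446 higher and 509 lower. WT cDC1, set against the same WT cDC2 libraries, gave 2846 calls (21.2%), 5376 genes at an equal level (40.1%) and 1285 called genes at least 4-fold apart. The median absolute log2 fold change over all genes was 0.58 for KO cDC1 and 0.51 for WT cDC1, each against WT cDC2, with a median SE of 0.34 for both. The 2 comparisons share the WT cDC2 libraries, so these values are given side by side and the difference between them was not tested. Of the 13415 genes 6625 (49.4%) had libraries that did not overlap between the groups, 3415 (25.5%) with every KO cDC1 library above and 3210 (23.9%) with every one below. Leaving out 1 KO cDC1 library brought the calls to between 1370 and 1488, and using replicates 2 and 3 alone brought them to 6359.

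**Figure D1:**
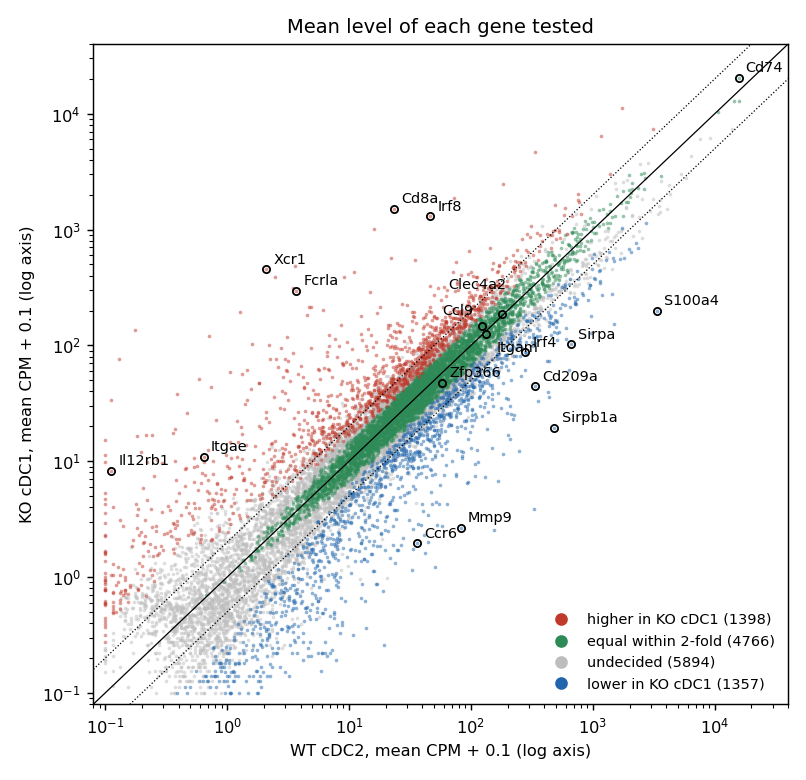
Mean CPM plus 0.1 of the 13415 genes tested, in KO cDC1 (vertical, log axis) and WT cDC2 (horizontal, log axis), coloured by class. The solid line marks equal levels and the dotted lines 2-fold either way. Xcr1, Irf8 and Cd8a lie far above the line, S100a4, Sirpb1a and Sirpa below it, and Itgam, Clec4a2, Ccl9 and Zfp366 on it.

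Zfp366 itself, on chromosome 13 at bases 99184823 to 99247032 of GRCm38, stood at an equal level in the 2 groups. It had 48.8, 48.4 and 45.4 CPM in KO cDC1, against 52.6, 62.4 and 57.4 CPM in WT cDC2 (log2 fold change -0.27, SE 0.27, 90% interval -0.75 to 0.20). WT cDC1 averaged 103 CPM. All KO cDC1 libraries lay below all WT cDC2 libraries, by less than the test resolves. The counts are per gene and do not show which exons the reads of the KO libraries cover, so they check the genotype label only in part.

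Among the transcription factors that set dendritic cell fate, KO cDC1 stayed above the WT cDC2 level of Irf8 and Id2 and held an Irf4 level between the 2 wild-type subsets. Irf8, the master regulator of cDC1, had 1418, 1254 and 1249.6 CPM in KO cDC1, against 91.4, 28.2 and 18.4 CPM in WT cDC2 (4.82, SE 0.52, adjusted p = 5.93e-05). Id2, an inhibitor of E proteins that cDC1 need, had 925, 911 and 923 CPM in KO cDC1, against 341, 254 and 265 CPM in WT cDC2 (1.68, SE 0.32, adjusted p = 0.00333). Neither gene had overlapping libraries, and without WT cDC2 replicate 1 the log2 fold change of Irf8 was 5.81. Irf4, the regulator of cDC2, had 100, 86.7 and 74.2 CPM in KO cDC1, against 322, 249 and 268 CPM in WT cDC2 (-1.69, SE 0.25, adjusted p = 0.000634). In WT cDC1 its mean was 13.8 CPM, so the KO cDC1 libraries stood above WT cDC1 and below every WT cDC2 library.

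Other regulators split in the same comparison. Relb, an NF-κB subunit that cDC2 use, had 198, 156 and 164 CPM in KO cDC1, against 509.6, 349 and 339.9 CPM in WT cDC2 (-1.21, SE 0.30, adjusted p = 0.0155). Zeb2, a repressor tied to cDC2 and plasmacytoid cells, had 10.03, 12.6 and 11.5 CPM in KO cDC1, against 16.5, 50.8 and 54.6 CPM in WT cDC2 (-1.83, SE 0.47, adjusted p = 0.0179). Both were lower without overlap, but Relb lost its call without KO cDC1 replicate 2 or 3 and Zeb2 without any 1 KO cDC1 library or without WT cDC2 replicate 2 or 3 (adjusted p up to 0.0739 and 0.0721). Batf3, the partner of IRF8, stood at an equal level, with 89.4, 78.6 and 88.1 CPM in KO cDC1 and 64.8, 69.3 and 81.4 CPM in WT cDC2 (0.25, SE 0.21); with the length trend removed it was called higher (0.88). Notch2, the receptor on which splenic cDC2 depend, had 315, 302 and 297 CPM in KO cDC1 and 90.5, 152 and 170.0 CPM in WT cDC2 and was undecided (1.15, SE 0.44, adjusted p = 0.0815), though no library overlapped and 5 of 17 alternatives called it higher. Klf4, Bcl6, Zbtb46 and Nfil3 were undecided as well, with log2 fold changes of -0.49, 0.64, -0.56 and 0.74. Of 30 dendritic cell transcription factors 6 were higher, 4 lower, 10 equal and 10 undecided (33.3% called, against 20.5% of all genes). Without KO cDC1 replicate 2 or 3, 2 were lower. The equal ones included Spi1, which encodes PU.1, at 344, 334 and 353 CPM in KO cDC1 and 451, 486 and 465 CPM in WT cDC2 (-0.44, SE 0.21). Cebpb, a factor of myeloid cells, was the most reduced member called (-2.80, SE 0.42, adjusted p = 0.000646), and Mycl, which cDC1 use for growth, was among the raised (1.34, SE 0.27, adjusted p = 0.00437).

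The genes that define cDC1 stayed far above the WT cDC2 level. In the cDC1 signature KO cDC1 were higher in 27 of 29 genes (93.1%, against 10.4% of all genes), none was lower, Batf3 was equal and Nfil3 undecided. The members of the cDC1 and cDC2 signatures were chosen with earlier results of these data known, so their shares and medians are a description. Their median log2 fold change was 4.30, against 0.00 over all genes and against 5.19 for WT cDC1 minus WT cDC2. Xcr1, the receptor for the chemokine XCL1, had 502, 431 and 437 CPM in KO cDC1, against 4.28, 1.63 and 0.0911 CPM in WT cDC2 (7.73, SE 0.75, adjusted p = 2.85e-05). Clec9a, the receptor for actin of dead cells, had 481, 401 and 411 CPM in KO cDC1, against 27.9, 3.44 and 1.09 CPM in WT cDC2 (5.29, SE 0.85, adjusted p = 0.00116). Cd8a had 1488, 1482 and 1557 CPM in KO cDC1, against 62.2, 2.98 and 4.65 CPM in WT cDC2 (6.01, SE 1.03, adjusted p = 0.00175). For Clec9a and Cd8a the large SE comes with WT cDC2 replicate 1, whose levels lay far above those of the other WT cDC2 libraries and far below those of KO cDC1. Without that library the log2 fold changes were 7.51 for Clec9a, 8.65 for Cd8a and 8.86 for Xcr1. Cadm1, an adhesion molecule of cDC1, had 327, 317 and 303 CPM in KO cDC1, against 5.75, 3.11 and 1.18 CPM in WT cDC2 (6.51, SE 0.52). Naaa, a lysosomal amidase, had 1879, 1828 and 1958 CPM in KO cDC1, against 107, 54.02 and 58.3 CPM in WT cDC2 (4.69, SE 0.42). These cDC1 genes thus separated the groups in every library.

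Some members of that signature stood far below the WT cDC1 level or only slightly above that of WT cDC2. Itgae, which encodes CD103, had only 10.1, 11.3 and 11.1 CPM in KO cDC1, against 0.175, 0 and 1.46 CPM in WT cDC2 and a mean of 176 CPM in WT cDC1. It was still called higher than in WT cDC2 (4.72, SE 0.79, adjusted p = 0.00144), by 3.99 without WT cDC2 replicate 2 and by 6.72 without replicate 3. Plpp1, a lipid phosphatase, had 19.5, 22.7 and 24.6 CPM in KO cDC1, against 1.37, 1.02 and 0.911 CPM in WT cDC2 (4.30, SE 0.39), with a mean of 112 CPM in WT cDC1. Wdfy4, which cDC1 need for cross-presentation, had 2262, 1862 and 1978 CPM in KO cDC1, against 533, 829 and 893 CPM in WT cDC2 (1.44, SE 0.44, adjusted p = 0.0361), and its call ended without any 1 of the 6 libraries (adjusted p up to 0.0971). Rtl8a, an X-linked gene derived from a retrotransposon, had the lowest called log2 fold change of the signature (1.29, SE 0.31, adjusted p = 0.0127) and lost its call without KO cDC1 replicate 1 (0.0537). Clnk, an adaptor of immune receptors, and Gpr33, an orphan chemoattractant receptor, were without a read in WT cDC2 and were at least 309.6-fold and 229-fold higher in KO cDC1, counted against a floor of 3 reads over the group. With both at these bounds the median of the list was the same, 4.30.

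The genes that define cDC2 reached part of the WT cDC2 level. Of 24 genes of the cDC2 signature 14 were lower in KO cDC1 (58.3%, against 10.1% of all genes), 1 was higher, 3 were equal and 6 undecided. The median log2 fold change was -1.76, against -4.22 for WT cDC1 minus WT cDC2, both set against the same WT cDC2 libraries. Sirpa, the inhibitory receptor by which cDC2 are sorted in many protocols, had 88.9, 105 and 112 CPM in KO cDC1, against 499, 785 and 706 CPM in WT cDC2 (-2.70, SE 0.25, adjusted p = 2.10e-05). S100a4, a calcium-binding protein, had 206, 185 and 206 CPM in KO cDC1, against 3353, 2732 and 3959.5 CPM in WT cDC2 (-4.07, SE 0.43, adjusted p = 4.70e-05), the lowest log2 fold change of the signature. Clec4a4, the lectin DCIR2 of splenic cDC2, had 75.5, 72.5 and 73.6 CPM in KO cDC1, against 528, 349.8 and 373 CPM in WT cDC2 (-2.50, SE 0.33, adjusted p = 0.000245). No library of one group overlapped the other for these genes, and all KO cDC1 values lay above the WT cDC1 means of 24.7, 40.1 and 5.41 CPM.

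Esam, the adhesion molecule of the NOTCH2-dependent splenic cDC2, had 11.7, 11.7 and 10.4 CPM in KO cDC1, against 69.7, 55.3 and 49.3 CPM in WT cDC2 (-2.37, SE 0.21, adjusted p = 1.19e-05). Its mean in WT cDC1 was 6.75 CPM, so Esam in KO cDC1 stood nearer to WT cDC1 than to WT cDC2. Dtx1, a target of Notch signalling, had 32.6, 42.9 and 41.5 CPM in KO cDC1, against 147, 159 and 194 CPM in WT cDC2 (-2.10, SE 0.21), with a WT cDC1 mean of 2.48 CPM. Csf1r, the receptor for CSF1, had 25.9, 37.8 and 39.6 CPM in KO cDC1, against 132, 242 and 231 CPM in WT cDC2 (-2.55, SE 0.35), with a WT cDC1 mean of 26.2 CPM. Cd209a, a relative of DC-SIGN (-2.92, SE 0.34), Cx3cr1, the fractalkine receptor (-2.59, SE 0.41), and Ltb, which encodes lymphotoxin beta (-1.89, SE 0.22), were lower too. Cd300a, an inhibitory receptor, was the nearest of the lower members (-0.80, SE 0.25, adjusted p = 0.0419) and lost its call without any 1 of the 6 libraries (adjusted p up to 0.148). Clec12a, an inhibitory lectin placed in this list by its use as a marker, was higher in KO cDC1 (1.94, SE 0.25, adjusted p = 0.000237). Its mean of 364 CPM in WT cDC1 was also above the WT cDC2 level.

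The 3 cDC2 signature genes at an equal level were Itgam, Clec4a2 and Tcf4. Itgam, which encodes CD11b, had 128, 127 and 120.4 CPM in KO cDC1 and 90.3, 157 and 147 CPM in WT cDC2 (-0.07, SE 0.35, 90% interval -0.70 to 0.55), where WT cDC1 averaged 4.47 CPM. Clec4a2, the lectin DCIR, had 198, 174 and 189.5 CPM in KO cDC1 and 327, 115 and 99.6 CPM in WT cDC2 (0.05, SE 0.47, 90% interval -0.78 to 0.88), where WT cDC1 averaged 3.89 CPM. For Clec4a2 the WT cDC2 libraries lay on both sides of KO cDC1, with replicate 1 above and replicates 2 and 3 below. Within replicates 2 and 3 alone Clec4a2 was called higher (0.75) and Itgam lower (-0.31). Tcf4, the E protein E2-2, had 26.3, 29.8 and 30.7 CPM in KO cDC1 and 32.96, 33.1 and 39.8 CPM in WT cDC2 (-0.28, SE 0.29), and with the length trend removed it was called lower (-0.79). Cd4 (-1.45, SE 0.49, adjusted p = 0.0533), Lyz2 (-0.82, SE 0.29, adjusted p = 0.0611) and Clec10a (-1.43, SE 0.58, adjusted p = 0.0973) were undecided. Clec10a had 12.2, 10.7 and 9.58 CPM in KO cDC1 and 66.2, 11.7 and 9.199 CPM in WT cDC2, so WT cDC2 replicate 1 alone stood apart from the other 5 libraries.

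**Figure D2:**
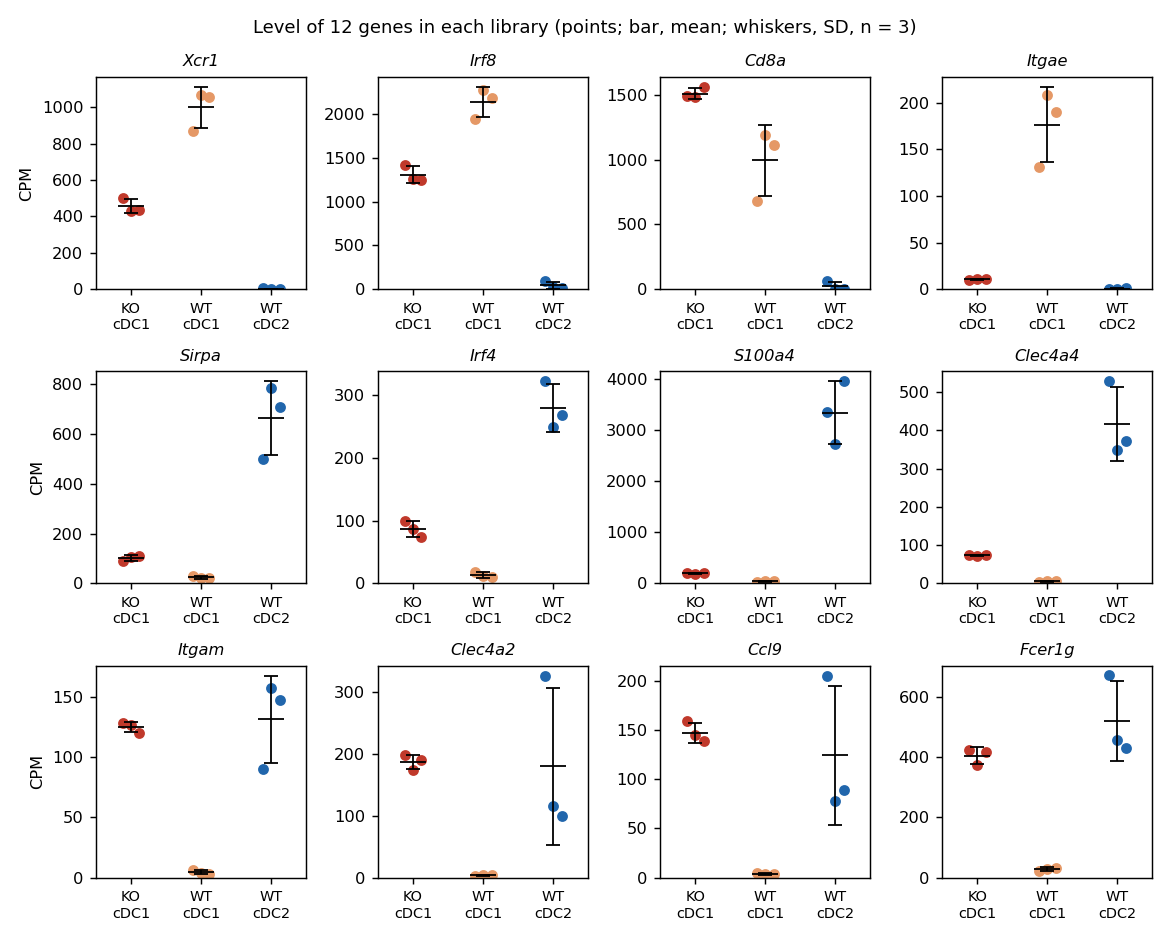
CPM of 12 genes in each library of KO cDC1, WT cDC1 and WT cDC2 (points), with the group mean (bar) and SD (whiskers, n = 3); each panel has its own linear axis from 0. Xcr1, Irf8, Cd8a and Itgae were higher in KO cDC1 than in WT cDC2, Sirpa, Irf4, S100a4 and Clec4a4 were lower, and Itgam, Clec4a2, Ccl9 and Fcer1g stood at an equal level.

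The signatures hold known subset genes, listed with earlier results of these data known. Subset genes were also drawn by a rule from the libraries outside the comparison. These were the 100 genes with the largest log2 fold change in each direction between KO cDC2 and WT cDC1; the mouse pools are the same, the libraries are not. Of the 100 cDC2-biased genes 77 were lower in KO cDC1 than in WT cDC2, none was higher, 6 were equal and 17 undecided. The median log2 fold change was -2.71 (quartiles -3.77 and -1.87), and the same genes had -5.02 for WT cDC1 minus WT cDC2. Of the 100 cDC1-biased genes 91 were higher in KO cDC1, none was lower, 1 was equal and 8 undecided, with a median of 4.24 (quartiles 2.92 and 5.46), against 4.76 for WT cDC1 minus WT cDC2. Among the lists' members 11 of the cDC2-biased and 18 of the cDC1-biased genes belong to the signatures. The direction of these medians follows from how the genes were chosen. The WT cDC1 libraries were used in that choice, so the medians for WT cDC1 are also extreme by choice. Only the size of the KO cDC1 medians is a measurement.

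By library, the mean log2 CPM of the cDC2-biased genes was 2.81, 3.35 and 3.37 in KO cDC1, against 6.03, 5.41 and 5.28 in WT cDC2, while WT cDC1 had 0.90, 0.65 and 0.55. KO cDC1 libraries lay between the wild-type subsets, but the far place of WT cDC1 follows from the choice of genes. The cDC2 signature, not picked by that rule, had means of 5.54, 5.62 and 5.57 in KO cDC1. Its means were 3.52, 3.35 and 3.42 in WT cDC1 and 7.02, 6.97 and 6.78 in WT cDC2. The cDC1-biased genes had means of 6.12, 6.11 and 6.12 in KO cDC1, against 1.93, 1.61 and 1.21 in WT cDC2, while WT cDC1 had 6.77, 6.85 and 6.79. Sirpb1c, a signal-regulatory protein, was the cDC2-biased gene with the smallest p, at 5.73, 6.44 and 7.66 CPM in KO cDC1, against 122, 189 and 188 CPM in WT cDC2 (-4.65, SE 0.25, adjusted p = 4.40e-07). It shares much of its sequence with Sirpb1a (-4.65, SE 0.28), and how reads were split between them is uncertain. Cyp4f37, a cytochrome P450 (-3.35, SE 0.22), and Lysmd2 (-3.71, SE 0.27) were lower as well. On the cDC1 side, P3h2, a collagen prolyl hydroxylase, had 118, 149.6 and 136 CPM in KO cDC1, against 0, 0.139 and 0.0911 CPM in WT cDC2 (10.86, SE 0.52, adjusted p = 4.40e-07). With so few reads in WT cDC2 its log2 fold change ran between 10.05 without replicate 1 and 12.04 without replicate 2 of that group. Fam149a (4.32, SE 0.22), Fndc7 (4.16, SE 0.22) and Pianp (5.49, SE 0.36) were as clear.

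**Figure D3:**
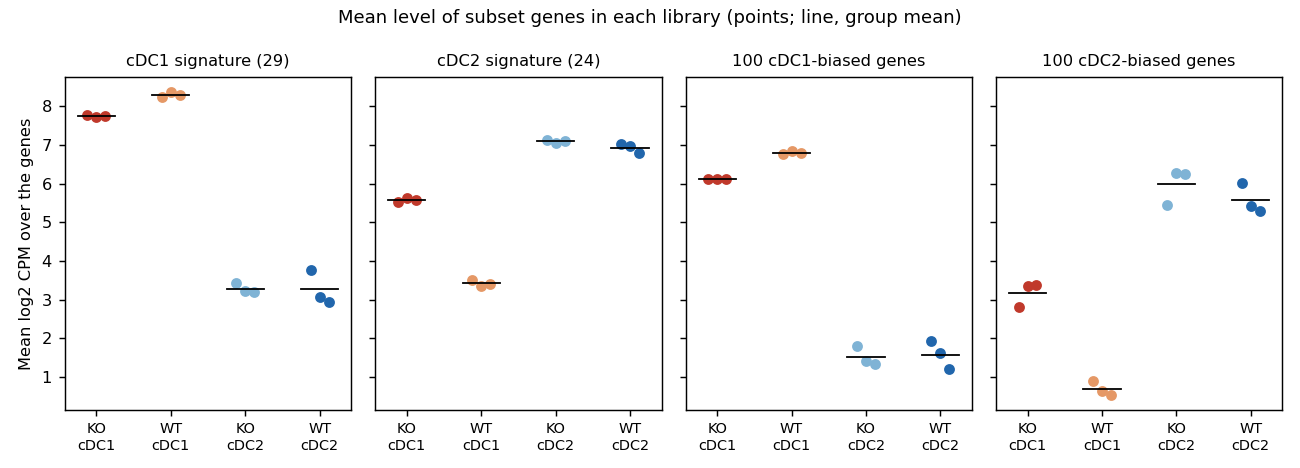
Mean log2 CPM over the genes of 4 lists in each of the 12 libraries (points; line, group mean). For both cDC2 lists the KO cDC1 libraries lie between WT cDC1 and WT cDC2, and for both cDC1 lists they lie near WT cDC1, with 7.72 to 7.77 in the cDC1 signature against 2.95 to 3.77 in WT cDC2. The biased lists were chosen with the WT cDC1 libraries, which are extreme in them by choice.

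Some genes that differ widely between the wild-type subsets stood at the WT cDC2 level in KO cDC1. On the side of cDC2 genes, Ccl9, a chemokine, had 159, 144 and 139 CPM in KO cDC1 and 205, 77.8 and 89.3 CPM in WT cDC2 (0.25, SE 0.41, 90% interval -0.48 to 0.97), where WT cDC1 averaged 3.93 CPM. Fcer1g, the signalling chain of Fc receptors, had 424, 373 and 416 CPM in KO cDC1 and 670.4, 456 and 430.4 CPM in WT cDC2 (-0.36, SE 0.27), where WT cDC1 averaged 28.1 CPM. The KO cDC1 libraries of Ccl9 lay below WT cDC2 replicate 1 and above replicates 2 and 3, and 2 of 17 alternatives called Ccl9 higher. Those of Fcer1g lay just below the WT cDC2 libraries. Fcer1g was called higher (0.53) in replicates 2 and 3 with the length trend removed. Stat4, which transmits IL-12 signals, had 27.1, 24.8 and 26.9 CPM in KO cDC1 and 34.7, 29.9 and 22.4 CPM in WT cDC2 (-0.14, SE 0.23). Wls, which WNT proteins need for secretion, had 42.7, 33.7 and 30.5 CPM in KO cDC1 and 57.7, 28.3 and 32.2 CPM in WT cDC2 (-0.15, SE 0.29). Ctnnd2, a catenin, had 41.1, 52.8 and 52.4 CPM in KO cDC1 and 23.9, 62.9 and 51.5 CPM in WT cDC2 (0.08, SE 0.36). For all 3 the WT cDC1 mean was under 3 CPM. Ctnnd2 was called lower (-0.40) in replicates 2 and 3 with the length trend removed. Ptchd1, Abca9 and Nxpe4 made up, with Itgam and Clec4a2, the rest of the 10 such genes with the largest gap between the wild-type subsets, with log2 fold changes of -0.38, -0.12 and 0.00. Ptchd1 was called lower in 3 of 17 alternatives. These genes were picked for being equal here and far apart in the wild type, so the pattern is a description.

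Fewer reads were involved on the side of cDC1 genes at the WT cDC2 level. Slc11a1, the metal transporter NRAMP1 of phagosomes, had 21.1, 19.5 and 22.4 CPM in KO cDC1 and 15.9, 19.4 and 24.4 CPM in WT cDC2 (0.08, SE 0.23), where WT cDC1 averaged 132 CPM. It was the 1 gene of the 100 cDC1-biased genes at an equal level. Ccl2, a monocyte chemoattractant, had 3.302, 2.53 and 1.97 CPM in KO cDC1 and 1.61, 2.603 and 1.91 CPM in WT cDC2 (0.35, SE 0.36), where WT cDC1 averaged 21.9 CPM. Creg1, a lysosomal glycoprotein, had 234, 249 and 271 CPM in KO cDC1 and 159, 179 and 225 CPM in WT cDC2 (0.42, SE 0.28), where WT cDC1 averaged 547 CPM. Idh1, an isocitrate dehydrogenase, had 30.6, 21.8 and 18.8 CPM in KO cDC1 and 18.3, 18.9 and 19.5 CPM in WT cDC2 (0.33, SE 0.22). For the 10 genes so chosen, the others being Ubtd2, Enpp5, Mospd1, Jazf1, Fmo5 and Lrrc40, the log2 fold change lay between 0.04 (Jazf1) and 0.49 (Lrrc40), so all 10 were at or slightly above the WT cDC2 mean.

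KO cDC1 also held genes at levels that neither wild-type subset had. Il12rb1, which encodes part of the IL-12 receptor, had 7.799, 8.01 and 8.72 CPM in KO cDC1, against 0.0351, 0 and 0 CPM in WT cDC2, where the group had 1 read in all (ratio 499, 95% counting interval 89.2 to 19728). Its mean in WT cDC1 was 0.0707 CPM. Klrb1b, an NK receptor of the NKR-P1 family, had 253, 178 and 178 CPM in KO cDC1, against 16.7, 0.465 and 1.09 CPM in WT cDC2 (5.01, SE 1.17, adjusted p = 0.0108), and its mean in WT cDC1 was 0.336 CPM. Cd8b1, the β chain of CD8, had 25.7, 33.2 and 34.9 CPM in KO cDC1, against 2.98, 0.9297 and 0 CPM in WT cDC2 (4.46, SE 0.79, adjusted p = 0.00217), and its mean in WT cDC1 was 1.502 CPM. All 3 were present in each KO cDC1 library and lay above every WT cDC2 library and above the WT cDC1 mean. In WT cDC2 they came mostly from replicate 1, without which the log2 fold changes were 8.14 for Klrb1b and 5.81 for Cd8b1. Cd226, the activating receptor DNAM-1, had 92.6, 82.6 and 86.3 CPM in KO cDC1, against 8.48, 2.23 and 8.93 CPM in WT cDC2 (3.74, SE 0.48). Gria3, a glutamate receptor subunit, had 51.4, 67.2 and 66.4 CPM in KO cDC1, against 9.08, 3.49 and 4.01 CPM in WT cDC2 (3.46, SE 0.54). The other genes of this kind were Sv2b, a synaptic vesicle protein (5.90, SE 0.86), Palld, an actin-binding protein (4.72, SE 1.02), the collagen gene Col4a2 (5.37, SE 0.63), Cd200r2 (5.64, SE 0.65) and Efhd1 (6.56, SE 0.68). Without WT cDC2 replicate 1 they were 8.86 for Sv2b, 6.93 for Palld, 8.39 for Efhd1, 6.41 for Cd200r2 and 4.05 for Gria3.

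Genes below both wild-type subsets were less far from them. Icos, a costimulatory receptor, had 5.81, 4.94 and 4.87 CPM in KO cDC1, against 35.6, 30.7 and 23.7 CPM in WT cDC2 (-2.53, SE 0.28, adjusted p = 6.10e-05), and its mean in WT cDC1 was 20.4 CPM. Hfe, an MHC class I-like regulator of iron uptake, had 104, 90.9 and 102 CPM in KO cDC1, against 238, 325 and 408 CPM in WT cDC2 (-1.71, SE 0.37, adjusted p = 0.00702), and its mean in WT cDC1 was 307 CPM. Gpr82, an orphan receptor, had 4.73, 3.67 and 4.18 CPM in KO cDC1, against 14.7, 29.8 and 20.6 CPM in WT cDC2 (-2.37, SE 0.47). The KO cDC1 libraries of these 3 genes lay below every WT cDC2 library. Tmem141 (-2.44, SE 0.39), Triqk (-2.63, SE 0.48), Ier5l (-2.12, SE 0.39), Tpm2 (-2.06, SE 0.41) and Sdhaf4 (-1.92, SE 0.38) were further members. Smagp (-1.69, SE 0.39, adjusted p = 0.0104) lost its call without KO cDC1 replicate 2 (0.0543), and Gt(ROSA)26Sor, whose groups overlapped (-1.51, SE 0.43, adjusted p = 0.0274) lost it in 8 of 17 alternatives (adjusted p up to 0.111).

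**Figure D4:**
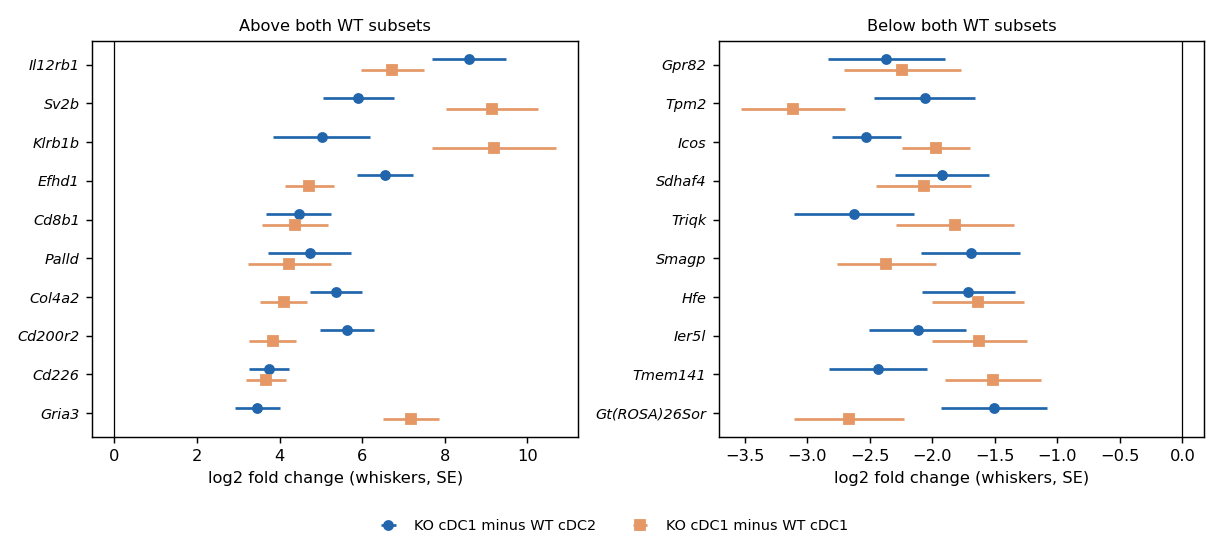
Log2 fold change (points) with SE (whiskers) of the 10 genes furthest above and the 10 furthest below both wild-type subsets; circles, KO cDC1 minus WT cDC2; squares, KO cDC1 minus WT cDC1. Both differences share the KO cDC1 libraries and the genes were picked for having the same sign in both. Against WT cDC2 they run from 3.46 to 8.59 on the left and from -2.63 to -1.51 on the right.

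The largest differences of all were those of genes nearly silent in WT cDC2. Dkk3, which encodes a secreted Dickkopf protein, had 61.2, 82.7 and 82.8 CPM in KO cDC1, against a single read in the WT cDC2 libraries (ratio 4607, 95% counting interval 827 to 181992). Gramd2 and Cyp8b1, an enzyme of bile acid synthesis, had no read in WT cDC2 and were at least 199.6-fold and 106-fold higher. Fzd1, a WNT receptor (7.41, SE 0.78), Rab7b, a GTPase of endosomes (7.28, SE 0.80), Gcsam (7.197, SE 0.99) and Gpr141b (7.04, SE 0.97) were among the 12 largest as well. Most of their WT cDC2 reads were in replicate 1, and without it the values were 10.82 for Fzd1, 9.19 for Rab7b, 10.29 for Gcsam and 8.99 for Gpr141b. On the other side the largest differences were less even among WT cDC2 libraries. Hebp1, a haem-binding protein, had 3.18, 4.66 and 3.52 CPM in KO cDC1, against 11.6, 469.9 and 512 CPM in WT cDC2 (-6.45, SE 1.40, adjusted p = 0.00731), so WT cDC2 replicate 1 lay far nearer to KO cDC1 than to its partners. Scn3a, a sodium channel (-6.84, SE 1.30), Klra17, a receptor of the Ly49 family (-5.96, SE 1.01), Rpl39l (-5.68, SE 1.14) and Trem3 (-5.66, SE 0.71) showed the same unevenness, with replicate 1 lowest. With limma-voom Scn3a and Rpl39l lost their calls (adjusted p up to 0.135 and 0.0885), and Hebp1 did with the mouse pool as a random effect (0.0511). Sucnr1, the succinate receptor, had 0.358, 1.895 and 1.11 CPM in KO cDC1, against 56.6, 45.7 and 48.2 CPM in WT cDC2 (-5.48, SE 0.67, adjusted p = 0.000153), even across the WT cDC2 libraries. Cd209b, a C-type lectin, was even as well (0.0796, 0.118 and 0.0819 CPM in KO cDC1, against 8.83, 8.41 and 5.83 CPM in WT cDC2, -6.29, SE 0.44).

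**Figure D5:**
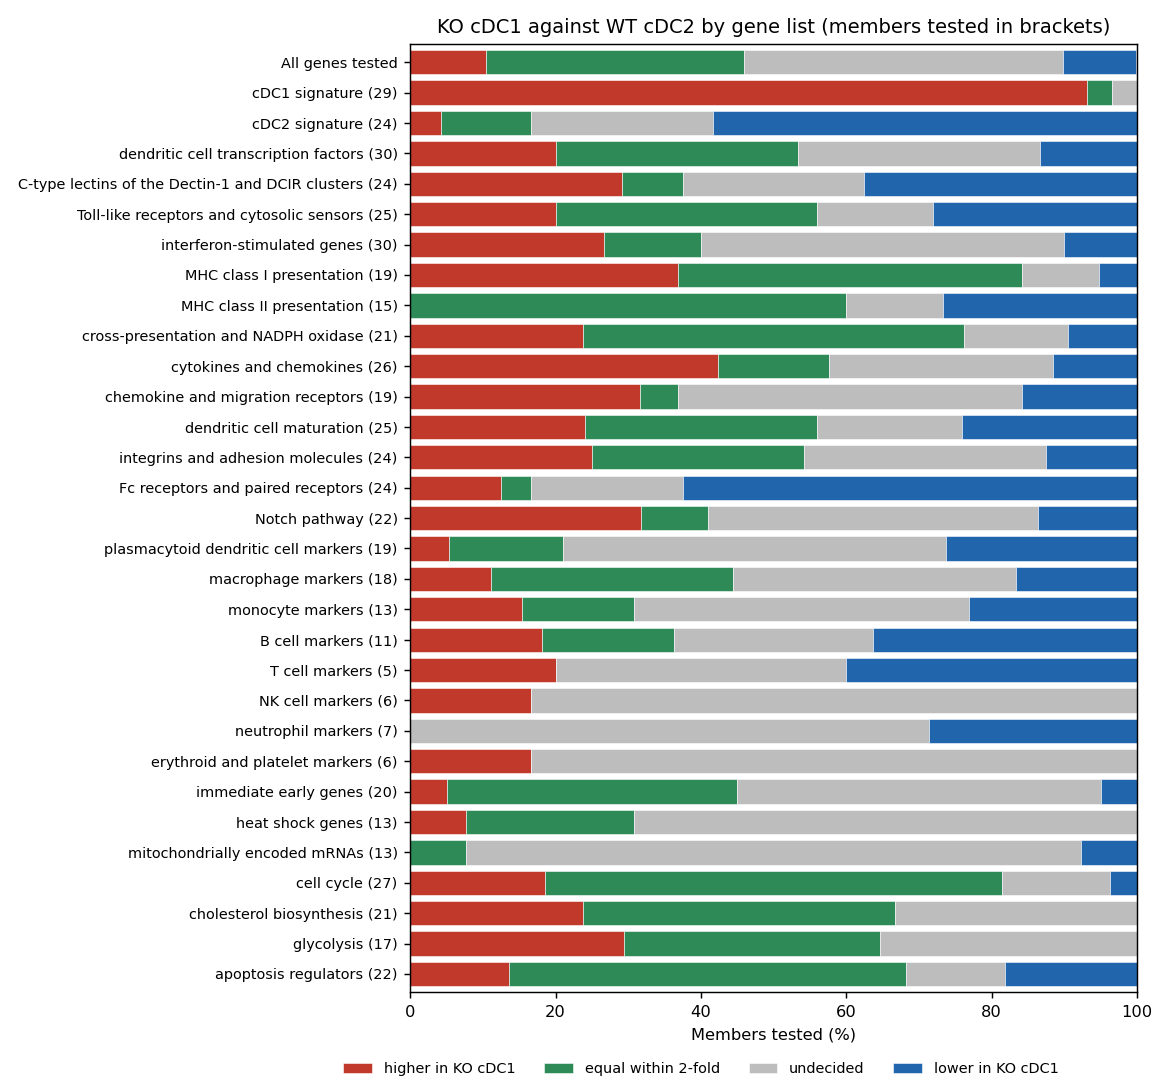
Share of the tested members of 30 gene lists, and of all genes tested (top), that were higher in KO cDC1, equal within 2-fold, undecided or lower. The cDC1 signature is almost entirely higher and the cDC2 signature and the Fc and paired receptors are mostly lower, where all genes have 10.4% higher and 10.1% lower.

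Receptors that signal through ITAM and ITIM motifs, most of them shared by myeloid cells, were largely below the WT cDC2 level. Of 24 Fc receptors and paired receptors 15 were lower, 3 higher, 1 equal and 5 undecided (75% called, against 20.5% of all genes). Their median log2 fold change was -1.54, and 10.1% of all genes were lower. Sirpb1a, an activating signal-regulatory protein, had 15, 19.2 and 23.7 CPM in KO cDC1, against 394, 511 and 546 CPM in WT cDC2 (adjusted p = 1.18e-06). Cd300lf, an inhibitory lipid receptor, had 9.03, 9.91 and 9.17 CPM in KO cDC1, against 72.2, 118 and 136 CPM in WT cDC2 (-3.53, SE 0.27, adjusted p = 5.28e-06). Lair1, a collagen receptor, had 79.8, 77.9 and 86.1 CPM in KO cDC1, against 172, 259 and 240.3 CPM in WT cDC2 (-1.46, SE 0.22, adjusted p = 0.000672). The exceptions were Fcgr2b, Fcrla and Fcgrt. Fcgr2b, the inhibitory IgG receptor, had 327, 309 and 332 CPM in KO cDC1, against 66.9, 38.4 and 31.97 CPM in WT cDC2 (2.82, SE 0.27, adjusted p = 2.85e-05), with a mean of 56.3 CPM in WT cDC1. Fcrla, an intracellular Fc receptor-like protein known from B cells, had 331, 269.5 and 288 CPM in KO cDC1, against 7.08, 1.81 and 1.91 CPM in WT cDC2 (6.32, SE 0.63, adjusted p = 3.14e-05), with a mean of 42.3 CPM in WT cDC1. Both thus stood above either wild-type subset, and Fcrla had 7.32 without WT cDC2 replicate 1.

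C-type lectins went both ways. Of 24 members of the Dectin-1 and DCIR families and their kin 7 were higher, 9 lower, 2 equal and 6 undecided. The called share was 66.7%, against 20.5% of all genes. The median log2 fold change was -1.06, and 1 of the 25 listed had too few reads to test. Klrd1, which encodes CD94, had 29.4, 20.2 and 19.6 CPM in KO cDC1, against 212, 209 and 240.5 CPM in WT cDC2 (-3.26, SE 0.22, adjusted p = 2.08e-06). Clec4b2 had 29.6, 22.1 and 26.7 CPM in KO cDC1, against 0.912, 0 and 0.182 CPM in WT cDC2 (5.95, SE 0.70, adjusted p = 0.000111), and 8.57 without WT cDC2 replicate 1. Neighbouring genes of the DCIR cluster therefore lay on opposite sides, with Clec4a4 and Clec4a1 lower and Clec4a2 equal. Clec4a1 had 34.1, 27.6 and 27.1 CPM in KO cDC1, against 164, 117 and 73.7 CPM in WT cDC2 (adjusted p = 0.000410). These genes are close relatives, and a split of reads between them by the counting is uncertain. Clec7a, the β-glucan receptor Dectin-1, had 332, 292 and 294 CPM in KO cDC1 and 390.4, 232 and 315 CPM in WT cDC2 (-0.03, SE 0.43), where WT cDC1 averaged 35.8 CPM.

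The sensors of microbes lay on both sides of the WT cDC2 level while the adaptor Myd88 and the chaperone Unc93b1 were equal. Of 25 Toll-like receptors and cytosolic sensors 5 were higher, 7 lower, 9 equal and 4 undecided (48% called, against 20.5% of all genes). Without KO cDC1 replicate 2 or 3, 3 were higher and 5 lower. Tlr3, which binds double-stranded RNA, had 238, 202 and 199 CPM in KO cDC1, against 6.94, 5.25 and 2.19 CPM in WT cDC2 (5.44, SE 0.40, adjusted p = 3.85e-06). Tlr11 (3.57, SE 0.35) and Tlr12 (4.65, SE 0.68), which sense profilin of Toxoplasma, were higher too, and Tlr12 had 6.02 without WT cDC2 replicate 1. Tlr7, the sensor of single-stranded RNA, had 3.46, 3.95 and 2.66 CPM in KO cDC1, against 23.6, 58.8 and 51.1 CPM in WT cDC2 (-3.72, SE 0.63, adjusted p = 0.00149). Nod1 (-1.95, SE 0.21) and Tlr1 (-1.37, SE 0.21) were lower as well. Myd88, which most of these receptors signal through, had 139, 107 and 110.0 CPM in KO cDC1 and 139.7, 105 and 112 CPM in WT cDC2 (0.00, SE 0.19). Unc93b1, the chaperone of endosomal receptors, had 1025, 882 and 937 CPM in KO cDC1 and 785, 660.0 and 634 CPM in WT cDC2 (0.45, SE 0.27). Sting1 was equal at 0.18 (SE 0.30), and so were Tlr13 (-0.19) and Tlr9 (0.47).

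Interferon-stimulated genes did not move as one block. Of 30 measured 8 were higher, 3 lower, 4 equal and 15 undecided (36.7% called, against 20.5% of all genes). Their median log2 fold change was 0.21. The number lower was 6 without WT cDC2 replicate 1 and 1 without WT cDC2 replicate 3 or any 1 KO cDC1 library, and 2 without WT cDC2 replicate 2. Oas3, a sensor of double-stranded RNA that activates RNase L, had 146, 154 and 154 CPM in KO cDC1, against 38.8, 14.5 and 8.65 CPM in WT cDC2 (2.86, SE 0.49, adjusted p = 0.00172), and a log2 fold change of 3.70 without WT cDC2 replicate 1. Gbp2, a GTPase that attacks vacuoles of pathogens, had 134, 119 and 126 CPM in KO cDC1, against 32.2, 40.5 and 48.3 CPM in WT cDC2 (1.65, SE 0.19, adjusted p = 0.000101). Trim30a, a regulator of inflammatory signalling, had 315, 308 and 302 CPM in KO cDC1, against 95.7, 131 and 108 CPM in WT cDC2 (1.46, SE 0.25, adjusted p = 0.00166). The WT cDC1 means were 2.46, 26.2 and 311 CPM, so Oas3 and Gbp2 stood above both wild-type subsets and Trim30a at the WT cDC1 level. Ifi44 (3.36, SE 0.54) and Irf7, the amplifier of type I interferon (1.31, SE 0.29), were higher as well. Ifi27 had 24.6, 25.7 and 28.99 CPM in KO cDC1, against 127, 148 and 138 CPM in WT cDC2 (-2.38, SE 0.36, adjusted p = 0.000654). Bst2, which encodes tetherin, had 90.5, 88.5 and 107 CPM in KO cDC1 and 104, 81.6 and 84.6 CPM in WT cDC2 (0.08, SE 0.21), and Irf9, a subunit of the interferon-activated complex ISGF3, was equal at 0.10 (SE 0.25).

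Genes of antigen presentation were split, with several genes of the MHC class I loading machinery raised and H2-K1, H2-D1 and B2m level. Of 19 MHC class I genes 7 were higher, 1 lower, 9 equal and 2 undecided (42.1% called, against 20.5% of all genes). Without KO cDC1 replicate 1 or WT cDC2 replicate 2, 4 were higher, and with the length trend removed 10 were. Pdia3, a chaperone of the peptide loading complex, had 1271, 1359.7 and 1414 CPM in KO cDC1, against 579, 620.2 and 537 CPM in WT cDC2 (1.22, SE 0.23, adjusted p = 0.00267). Tapbp, which encodes tapasin (1.15, SE 0.25), its relative Tapbpl (1.14, SE 0.17) and the chaperone gene Canx (1.12, SE 0.20) were higher by about the same amount. The class I molecules were equal, with H2-K1 at 0.31 (SE 0.30), H2-D1 at 0.11 (SE 0.27) and B2m, their light chain, at -0.32 (SE 0.22). H2-K1 and H2-D1 are near-identical in parts, and the split of reads between them is uncertain. H2-M3 was the lower member (-0.78, SE 0.20, adjusted p = 0.0168), with an adjusted p of up to 0.0794 when 1 library was left out, and Tap1 (1.14, SE 0.28) had one of up to 0.0594.

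Of 15 MHC class II genes none was higher, 4 were lower, 9 equal and 2 undecided (26.7% called, against 20.5% of all genes). Without WT cDC2 replicate 3 the number lower was 3, and without any other 1 of the 6 libraries it was 2. Cd74, the invariant chain, had 20514, 19225 and 21586 CPM in KO cDC1 and 15091, 17054 and 14861 CPM in WT cDC2 (0.38, SE 0.28). H2-Ab1 (-0.15, SE 0.27), H2-Aa (-0.29, SE 0.28) and H2-Eb1 (-0.04, SE 0.26) stood at an equal level beside it. H2-DMb2, a chain of the peptide editor H2-DM, had 170.1, 142 and 157 CPM in KO cDC1, against 506, 448 and 464 CPM in WT cDC2 (-1.60, SE 0.19, adjusted p = 0.000102). Ctsd, a lysosomal protease, had 30.1, 43.6 and 47.5 CPM in KO cDC1, against 119, 147 and 117 CPM in WT cDC2 (-1.66, SE 0.30, adjusted p = 0.00251). The groups did not overlap for either gene. Ifi30, the thiol reductase GILT (-0.73, SE 0.21, adjusted p = 0.0283), and Ctss, which cuts the invariant chain (-0.74, SE 0.24, adjusted p = 0.0472), were lower by less, and lost their calls in 8 and 9 of 17 alternatives.

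Of 21 genes of cross-presentation and the NADPH oxidase 5 were higher, 2 lower, 11 equal and 3 undecided (33.3% called, against 20.5% of all genes). The number higher was 2 or 3, and the number lower 1 or 2, whichever of the 6 libraries was left out. Sec61a1, the channel by which antigen may leave endosomes, had 322, 283 and 283 CPM in KO cDC1, against 185, 129 and 118 CPM in WT cDC2 (1.04, SE 0.24, adjusted p = 0.00950). Rab43, a GTPase that cDC1 use in cross-presentation, was higher (1.44, SE 0.36, adjusted p = 0.0165), with an adjusted p of up to 0.0611 when 1 library was left out. The membrane subunits of the oxidase were lower: Cyba had 418, 326 and 378 CPM in KO cDC1, against 948, 985 and 1165 CPM in WT cDC2 (-1.47, SE 0.33, adjusted p = 0.00875). Cybb had 196, 196 and 194 CPM in KO cDC1, against 395, 377 and 299.7 CPM in WT cDC2 (-0.87, SE 0.25, adjusted p = 0.0309), with an adjusted p of up to 0.103 when 1 library was left out and a mean of 16.5 CPM in WT cDC1. Ncf1, a cytosolic subunit, was equal (0.18, SE 0.30).

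More cytokine genes were higher than lower in KO cDC1. Of 26 tested, from 27 listed, 11 were higher, 3 lower, 4 equal and 8 undecided (53.8% called, against 20.5% of all genes). Their median log2 fold change was 0.82. The number lower was 1 without KO cDC1 replicate 2 or 3 or WT cDC2 replicate 3. Il12b, the p40 chain of IL-12, had 60.8, 68.02 and 54.8 CPM in KO cDC1, against 2.59, 9.297 and 8.38 CPM in WT cDC2 (3.19, SE 0.63, adjusted p = 0.00422). Cxcl9, which draws CXCR3-bearing T cells, had 314, 277 and 269.6 CPM in KO cDC1, against 19.7, 19.7 and 5.10 CPM in WT cDC2 (4.26, SE 0.46, adjusted p = 6.02e-05). Ccl22, a ligand of CCR4, had 167, 104 and 102 CPM in KO cDC1, against 25.8, 7.25 and 3.92 CPM in WT cDC2 (3.31, SE 0.59, adjusted p = 0.00227). None of the 3 overlapped, and for Ccl22 the KO cDC1 libraries also lay above the WT cDC1 mean of 41.8 CPM. Without WT cDC2 replicate 1 the log2 fold change of Ccl22 was 4.46. Cxcl16 (1.58, SE 0.17), Il15, which sustains memory CD8 T cells (1.32, SE 0.24), and Ccl6 (1.60, SE 0.30) were higher as well. Ccl4 was equal (-0.48, SE 0.18), and so was Tnfsf9, the ligand of 4-1BB (0.30, SE 0.36).

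Of 19 chemokine and migration receptors tested, from 20 listed, 6 were higher, 3 lower, 1 equal and 9 undecided. The called share was 47.4%, against 20.5% of all genes. Ccr6, the receptor for CCL20, had 1.35, 2.21 and 2.01 CPM in KO cDC1, against 36.7, 37 and 33.3 CPM in WT cDC2 (-4.26, SE 0.40, adjusted p = 2.24e-05). Ccr2, the receptor for CCL2, had 625, 486 and 464 CPM in KO cDC1, against 161, 37.3 and 27.5 CPM in WT cDC2 (2.80, SE 0.63, adjusted p = 0.00902), with a WT cDC1 mean of 69.4 CPM. Cysltr1, a leukotriene receptor, had 87.2, 80.5 and 73.5 CPM in KO cDC1, against 9.33, 6.69 and 3.37 CPM in WT cDC2 (3.62, SE 0.33, adjusted p = 1.68e-05), with a WT cDC1 mean of 19.1 CPM. Ccr2 and Cysltr1 in KO cDC1 thus lay above both wild-type subsets, and Ccr6 stayed near the WT cDC1 mean of 0.841 CPM. Cxcr3 was higher (4.70, SE 0.52) and Ccr1 lower (-2.98, SE 0.46), and Ptger4, a prostaglandin E2 receptor, was equal (0.29, SE 0.28). Without WT cDC2 replicate 1 the log2 fold changes were 4.02 for Ccr2, 5.76 for Cxcr3 and -2.27 for Ccr1.

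Of 25 maturation genes 6 were higher, 6 lower, 8 equal and 5 undecided (48% called, against 20.5% of all genes). Without WT cDC2 replicate 1 there were 5 higher and 7 lower, and replicates 2 and 3 alone gave 8 and 10. Leaving out any other library ended most calls in this list, and calls over all genes fell as well, from 2755 to between 1370 and 1988. Without KO cDC1 replicate 2 or 3 there was 1 higher and 1 lower, without KO cDC1 replicate 1 or WT cDC2 replicate 2 there were 1 higher and 3 lower, and without WT cDC2 replicate 3 there were 2 higher and 3 lower. Pdcd1lg2, which encodes PD-L2, had 11.2, 6.63 and 7.002 CPM in KO cDC1, against 51.7, 41.2 and 49 CPM in WT cDC2 (-2.52, SE 0.26, adjusted p = 4.39e-05). Cd274, which encodes PD-L1, was lower (-1.25, SE 0.34, adjusted p = 0.0227), as was Cd40 (-0.95, SE 0.26, adjusted p = 0.0259), whereas Cd86, a ligand of CD28, was higher (1.20, SE 0.34, adjusted p = 0.0261). When 1 library was left out these 3 had adjusted p values of up to 0.0986, 0.0938 and 0.0732. Cd83 had 2718, 2075 and 1939 CPM in KO cDC1 and 2356, 2644 and 2924 CPM in WT cDC2 and was equal (-0.24, SE 0.30), beside Nfkb2 (0.19, SE 0.35) and Birc3 (-0.01, SE 0.20).

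Of 24 integrins and adhesion molecules tested, from 25 listed, 6 were higher, 3 lower, 7 equal and 8 undecided. The called share was 37.5%, against 20.5% of all genes. Without KO cDC1 replicate 1 or 3 or WT cDC2 replicate 3, 4 members were higher and 2 lower. Itgal, the α chain of LFA-1, had 455, 409.7 and 418 CPM in KO cDC1, against 186, 163 and 138 CPM in WT cDC2 (1.39, SE 0.25, adjusted p = 0.00223). Itgb3, the β3 integrin, had 9.75, 10.9 and 10.7 CPM in KO cDC1, against 68.8, 27.9 and 27.8 CPM in WT cDC2 (-1.99, SE 0.32, adjusted p = 0.00118). The shared chain Itgb2 (-0.16, SE 0.29) and Itgax, which encodes CD11c (0.22, SE 0.31), were equal, as Itgam was.

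In the Notch pathway the target genes Dtx1 and Nrarp lay below the WT cDC2 level and the receptors Notch4 and Notch1 above it. Of 22 members tested, from 25 listed, 7 were higher, 3 lower, 2 equal and 10 undecided (45.5% called, against 20.5% of all genes). Their median log2 fold change was 0.62, and 4 were higher without KO cDC1 replicate 1 or 3. Nrarp, which limits Notch signalling, had 0.358, 0.316 and 0.573 CPM in KO cDC1, against 3.401, 5.49 and 5.28 CPM in WT cDC2 (-3.49, SE 0.40, adjusted p = 8.53e-05). Dtx1 has been given with the cDC2 genes, and Mfng, a modifier of the receptor, was the other lower member. Notch4, a receptor, had 91, 95.8 and 99.3 CPM in KO cDC1, against 8.17, 4.23 and 1.91 CPM in WT cDC2 (4.28, SE 0.54, adjusted p = 0.000189), and 4.92 without WT cDC2 replicate 1. Dtx4 (1.80, SE 0.24), the coactivator gene Maml2 (3.64, SE 0.80) and Rbpj, the DNA-binding partner of Notch (1.23, SE 0.29, adjusted p = 0.0110), were higher, and Maml2 had 4.77 without WT cDC2 replicate 2. Rbpj lost its call with the length trend removed (0.77).

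Of 17 glycolysis genes 5 were higher in KO cDC1, none lower, 6 equal and 6 undecided (29.4% called, against 20.5% of all genes). Without WT cDC2 replicate 1, 9 were higher. Hk3, a hexokinase of myeloid cells, had 66.8, 66.96 and 65.3 CPM in KO cDC1, against 2.07, 5.16 and 4.65 CPM in WT cDC2 (4.08, SE 0.43, adjusted p = 5.17e-05). Pfkp, a phosphofructokinase (2.06, SE 0.34), Aldoc, an aldolase (3.30, SE 0.64), and Pgam1, a phosphoglycerate mutase (1.14, SE 0.21), were higher, with 4.72 for Aldoc without WT cDC2 replicate 1. Of the rest, Ldha (-0.05, SE 0.28) and Pkm (0.33, SE 0.23) were equal. Cholesterol biosynthesis and the cell cycle had shares of called genes near that of all genes (23.8% and 22.2%, against 20.5%). Of 21 cholesterol biosynthesis genes 5 were higher, none lower, 9 equal and 7 undecided. None was higher by edgeR without KO cDC1 replicate 1 or WT cDC2 replicate 2. The number was 1 without KO cDC1 replicate 2 or WT cDC2 replicate 3 and 2 without KO cDC1 replicate 3. Replicates 2 and 3 alone gave 11 higher, where 23.8% of all genes were higher. Of 27 cell cycle genes 5 were higher, 1 lower, 17 equal and 4 undecided. The number higher was 0 without KO cDC1 replicate 3 or WT cDC2 replicate 3, 1 without replicate 2 of either group and 2 without KO cDC1 replicate 1. The higher ones were Mcm2, Mcm3, Mcm4 and Mcm6, subunits of the replicative helicase (0.72 to 0.90), and Top2a (1.27, SE 0.34), and each lost its call without at least 1 library. Ccnd1, which encodes cyclin D1, was the lower one (-1.10, SE 0.29, adjusted p = 0.0208), with an adjusted p of up to 0.0833 when 1 library was left out.

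Of 22 apoptosis regulators 3 were higher, 4 lower, 12 equal and 3 undecided (31.8% called, against 20.5% of all genes). Without replicate 2 or 3 of either group 0 were higher and 1 or 2 lower, and without KO cDC1 replicate 1 there were 1 higher and 2 lower. Bcl2a1b, a prosurvival relative of BCL2, had 424, 272 and 294 CPM in KO cDC1, against 894, 858 and 1115 CPM in WT cDC2 (-1.53, SE 0.31, adjusted p = 0.00513), though the copies of this gene are near-identical and their reads hard to assign. Mcl1 (0.46, SE 0.20) and Pmaip1, which encodes NOXA (0.07, SE 0.28), were equal. Of 20 immediate early genes 1 was higher, 1 lower, 8 equal and 10 undecided (10% called, against 20.5% of all genes). Replicates 2 and 3 alone gave 8 higher and 4 lower, where 23.8% of all genes were higher and 23.5% lower. Junb (0.24, SE 0.30), Zfp36 (0.28, SE 0.24) and Nr4a1 (0.04, SE 0.38) were among the equal. Egr1 was the higher one (0.94, SE 0.26, adjusted p = 0.0265) and lost its call when 1 of 5 libraries was left out (adjusted p up to 0.0927). Heat shock genes, with 1 of 13 higher (7.69%, against 10.4% of all genes), 3 equal and 9 undecided, were lowest in replicate 1 of both groups. Their summed level was 6799, 20335 and 20410 CPM in KO cDC1, against 3873, 24673 and 22259 CPM in WT cDC2. Hspa5, the chaperone BiP, was the higher one (1.25, SE 0.23, adjusted p = 0.00271). Of 13 mitochondrially encoded mRNAs 1 was lower, 1 equal and 11 undecided (7.69% called, against 20.5% of all genes). Their median log2 fold change was -0.57. In replicates 2 and 3 alone 12 were lower (median -1.36), where 23.5% of all genes were lower. Without KO cDC1 replicate 1 there were 3, and without KO cDC1 replicate 2 or 3 or WT cDC2 replicate 1 there were 0. Their summed level was 20505, 8251 and 6908 CPM in KO cDC1, against 15734, 17260 and 21831 CPM in WT cDC2, so KO cDC1 replicate 1 alone lay in the WT cDC2 range.

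Markers of other spleen cells were low in most cases, and in bulk RNA fewer cells of a type and less RNA per cell cannot be told apart. Plasmacytoid dendritic cell markers summed to 25.8 to 29.6 CPM over 5 genes in KO cDC1, against 77.0 to 127 CPM in WT cDC2. In WT cDC2 most of it was Spib (10.3, 10.8 and 11.6 CPM in KO cDC1, against 115, 71.9 and 66.3 CPM in WT cDC2, -2.95, SE 0.36), a factor that cDC2 also express, with Pacsin1 below 1 CPM in KO cDC1. Macrophage markers summed to 74.4 to 114 CPM over 6 genes in KO cDC1, against 243 to 451 CPM in WT cDC2. Adgre1, which encodes F4/80, had 13.5, 18.4 and 18.6 CPM in KO cDC1, against 137, 273 and 195 CPM in WT cDC2 (-3.58, SE 0.57, adjusted p = 0.00111), while Vcam1 was equal (-0.26, SE 0.23). C1qa (-2.16) and C1qc (-1.61) were lower too, but lost their calls in 3 and 6 of 17 alternatives. Cd163 (2.28) and Timd4 (3.30), also genes of macrophages, went the other way and were higher in KO cDC1. Monocyte markers summed to 471 to 628 CPM over 5 genes in KO cDC1, against 34.1 to 175 CPM in WT cDC2, nearly all of it Ccr2. Fcnb had no read in any of the 6 libraries and F13a1 was below 1 CPM in each.

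Most lymphocyte markers that define the cell were near 0. B cell markers summed to 42.2 to 56.7 CPM over 5 genes in KO cDC1, against 7.19 to 29.9 CPM in WT cDC2, nearly all of it Ms4a1, with Pax5 and Ebf1 below 1 CPM in each of the 6 libraries. Ms4a1 was called higher (1.48) but lost its call in 5 of 17 alternatives. Other genes of B cells, Cd79b (-2.43), Fcer2a (-2.94) and Cr2 (-2.92), were lower, and Cr2 lost its call in 8 of 16 alternatives. T cell markers summed to 0.318 to 1.60 CPM over 4 genes in KO cDC1, against 1.75 to 5.47 CPM in WT cDC2, and NK cell markers to 2.75 to 3.28 CPM in KO cDC1, against 1.12 to 4.21 CPM in WT cDC2. Cd3e and Cd3g were below 1 CPM in each of the 6 libraries. Cd3d, the third chain of this kind, was lower, with 0.0398, 0.07896 and 0.0819 CPM in KO cDC1, against 1.02, 0.7902 and 4.83 CPM in WT cDC2 (-4.91, SE 0.97, adjusted p = 0.00409). These stand beside the Cd8a and Cd8b1 levels given above. Neutrophil markers summed to 4.38 to 8.89 CPM over 4 genes in KO cDC1, against 5.75 to 78.3 CPM in WT cDC2, where replicates 2 and 3 held nearly all of S100a8 and S100a9; Mpo had no read. The counts of the longer marker lists stand beside 10.4% higher and 10.1% lower over all genes. Of 20 plasmacytoid dendritic cell genes 19 had enough reads to test, of which 1 was higher and 5 lower. All 18 macrophage genes were tested, with 2 higher and 3 lower (6 lower without WT cDC2 replicate 1, and 1 without KO cDC1 replicate 1 or 2 or WT cDC2 replicate 3), and 13 of 15 monocyte genes, with 2 higher and 3 lower. Of 11 B cell genes tested (13 listed) 2 were higher and 4 lower, of 5 T cell genes (9 listed) 1 was higher and 2 lower, and of 7 neutrophil genes (11 listed) 2 were lower. Of 6 NK cell genes and 6 erythroid and platelet genes tested (10 listed each) 1 each was higher. Ms4a4c (-2.19, SE 0.21) and Ace (-4.26, SE 0.56), which monocytes express, were lower, whereas Treml4 (1.35), which they also express, was higher. Mmp9, a gelatinase counted with the neutrophils, had 0.637, 3.08 and 3.97 CPM in KO cDC1, against 61.6, 99.3 and 85.2 CPM in WT cDC2 (-5.00, SE 0.55). Whether such cells contribute to these differences was not tested.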

How the data were processed

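RNA of sorted splenic cDC1 and cDC2 was sequenced after a TruSeq RNA preparation, per the labels' protocols. Per the submitters' processing notes the build was GRCm38 (mm10) and the authors' counter featureCounts, without a version; strand setting and aligner are not given in the sources used here. The deposited table holds raw read counts of 27179 genes in 12 libraries and gene lengths in bases, and the 12 files of single libraries hold the same counts. RefSeq GRCm38.p6 gave symbols for 25275 genes; the other 1904 held 2.23% of reads. Groups came from the labels. Genes kept by filterByExpr (13415) were fitted with edgeR 4.0.16 in R 4.3.3 (TMM scaling, robust quasi-likelihood fit) over all 12 libraries with 4 group means, and KO cDC1 was set against WT cDC2. Adjusted p-values are Benjamini-Hochberg values over all genes tested, called below 0.05, and the SE follows from the F statistic and the estimate. Libraries are mouse pools and not repeat runs: within groups counts differed by 13.7 to 176 times the counting noise (chi-square per degree of freedom). Intervals of read ratios cover counting error only.

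The fit was tested on simulated counts before use. Named genes were 12 regulators, the 12 largest differences each way among genes without overlap at 5 CPM or more, all signature genes, up to 6 called and 4 equal genes per list, the 10 equal genes furthest apart between WT subsets each way, the 10 furthest above and below both WT subsets, and up to 5 called and 5 equal subset-biased genes. Members and lists were chosen with earlier results of these data known. Alternatives were RLE scaling, no filter, a mean of at least 5 CPM, DESeq2 1.42.0, limma-voom (limma 3.58.1) with and without the mouse pool, the 6 libraries alone, a replicate block, replicates 2 and 3, removal of the length trend, each library left out, and margins of 1.5-fold and 4-fold for equality. Removal of the length trend in replicates 2 and 3 was added after the data were seen. Results for some single genes are not reported here.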

Additional observations from a re-analysis of the deposited data

How the results depend on the processing

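Against 1398 genes higher and 1357 lower, leaving out 1 library gave 774 to 1510 higher and 588 to 1333 lower, the fewest without a KO cDC1 library. Replicates 2 and 3 alone gave 3198 higher and 3161 lower, and with the length trend removed as well 2986 and 2966. The 6 libraries alone gave 1702 higher and 2077 lower, DESeq2 1877 and 1961, limma-voom 1585 and 1118, and RLE scaling 1376 and 1376. In the other settings higher calls were 1080 to 1616 and lower calls 1103 to 1553. Equal genes were 3985 to 5892 at a margin of 2-fold, 1329 at 1.5-fold and 8914 at 4-fold. Genes of the cDC2 signature called higher were 2 with DESeq2, with the 6 libraries alone and with the length trend removed, and 3 in replicates 2 and 3 with or without that removal. Genes of that signature called lower were 12 to 19, and cDC1 signature genes called higher 25 to 29 with none lower, over all settings run. Residuals of equal replicate numbers correlated at 0.34, 0.22 and 0.08. For KO cDC1 replicates 1 and 2 the equal number was the best partner. KO cDC1 replicate 3 correlated best with WT cDC2 replicate 2 (0.12), so the numbers did not pair the libraries throughout. The residuals of replicate 1 correlated at 0.34 between the groups. Residuals of a group sum to 0 for each gene. The negative correlations of replicate 1 with replicates 2 and 3 of the other group (-0.27 to -0.14) therefore follow from that value as a set. The positive ones among replicates 2 and 3 (0.08 to 0.22) follow in part as well. The main design has no term for a shared trait of replicate 1, and the fits with the block and of replicates 2 and 3 alone bear on it. With the replicate block 1616 genes were higher and 1488 lower, of which 2588 were among the 2755 calls described. Of 190 named genes called, 145 kept their call in each of the 17 alternatives in which they could be tested. With the length trend removed in replicates 2 and 3, the sign turned for Fcer1g (0.53), Cd68 (0.36), Plac8 (0.39) and Ctnnd2 (-0.40). All 4 were called in that setting and none in the fit described. The cause was not tested. DESeq2 gave no adjusted p for Cd8a, Gpr141b, Klra17, Klrb1b and Rab7b. Depth was lowest in WT cDC2 replicate 3 (11330503 reads), which limits genes of a few reads.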

Other observations

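The genes around Zfp366 and those of chromosome 6 were looked at after their values were seen, so these counts are a description without a test. Within 5 Mb of Zfp366 on chromosome 13, 57 genes were tested. Of them 13 were higher in KO cDC1 than in WT cDC2 (22.8%), 2 lower (3.51%) and 23 equal (40.4%). The whole of chromosome 13 had 13.5% higher, 6.74% lower and 32.8% equal, and all genes had 10.4%, 10.1% and 35.5%. In the same window 9 genes were higher and 3 lower in WT cDC1 than in WT cDC2, and 2 were higher and 0 lower in KO cDC1 than in WT cDC1 by edgeR's quasi-likelihood test. Chromosome 6, which carries the NK gene complex and the DCIR cluster, had 91 of its 702 genes higher, 93 lower and 204 equal (29.1%), the lowest equal share among the autosomes and the X chromosome. The 19 C-type lectins on it held 7 higher, 6 lower, 2 equal and 4 undecided genes.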
